A study of Mus musculus with 192 samples.

Results

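The comparison described here is that of kidneys from Nrf2-KO mice with kidneys from WT mice kept on the ground. It was defined by the sample labels and used 6 of the 192 libraries of the series, from 3 GC_KO mice (numbers 2, 11 and 12) and 3 GC_WT mice (numbers 6, 7 and 10). The mice were C57BL/6 males, were housed singly in habitats like those of the flight mice, and were not flown. Their sample labels list an age of 12 weeks, without saying at which stage. Kidneys were collected after the housing had ended. If the label refers to its start, the mice were older at dissection. GC_KO mice carried the disrupted Nfe2l2 allele in every cell and had been screened for the absence of an intrahepatic shunt, while GC_WT mice carried the intact gene. The model is therefore a germline loss in the whole animal, and effects that arise within the kidney cannot be told apart from those that reach it from other organs. Whole-kidney RNA was sequenced, so fewer cells of a type and less RNA per cell cannot be told apart either. Kidneys of 6 flown mice (FL_KO 1, 2 and 11 and FL_WT 5, 8 and 10) entered the same fit to estimate the spread.

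Nrf2, the product of Nfe2l2, is a transcription factor that is held at a low level by Keap1 and Cul3, which mark it for the proteasome. When it escapes this control it pairs with small Maf proteins on antioxidant response elements and drives genes for glutathione synthesis, conjugation, quinone reduction, NADPH supply and iron storage. In kidney, the proximal tubule is the main site of organic anion uptake and of glucuronide and glutathione conjugation.

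The 6 libraries held 13769210 to 14607952 expected counts, and 15114 genes were tested. GC_KO kidneys had 86 genes higher (0.569% of the genes tested) and 157 genes lower (1.04%) than GC_WT kidneys at an adjusted p under 0.05 in edgeR, 1.61% in both directions together. Among these, 38 higher and 57 lower genes changed at least 2-fold, the log2 fold change being at least 1 in size, and 221 of the 243 were protein coding. TPM (a transcript level scaled for length and depth) of the 3 GC_KO mice did not overlap with TPM of the 3 GC_WT mice in any of the 243 genes, against 16.2% of all genes tested. An exact permutation test of 3 mice against 3 cannot give a p below 0.1, so calls rest on the fit across all genes. GC_KO mouse 2 stood apart from the other GC_KO mice, from which its counts differed by a chi-square per gene of 17.2 and 14.4, while GC_KO mice 11 and 12 differed from each other by 7.14. Without GC_KO mouse 2 the fit called 225 genes, and without GC_KO mouse 12 it called 144.

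Nfe2l2 (ENSMUSG00000015839.6, chromosome 2, 75675513 to 75704641 on the minus strand, GRCm38) measured 48.6, 53.8 and 57.6 TPM in GC_WT and 27.1, 22.0 and 24.6 TPM in GC_KO. All 3 GC_KO mice lay below all 3 GC_WT mice, and the log2 fold change was -1.13 (SE 0.101, adjusted p = 3.4e-05). The remaining level was 46.1% of the WT mean. Gene-level counts do not show which part of the gene the remaining reads came from, so this level is no measure of intact transcript. Of the 10 regulators of Nrf2 that were tested, Nfe2l2 alone was called. Keap1, the adaptor that marks Nrf2 for degradation, had a mean of 24 TPM in GC_WT and 23.9 TPM in GC_KO. Sqstm1, whose product sequesters Keap1, lay at -0.25 on the log2 scale (SE 0.0804, adjusted p = 0.226) and Cul3 at -0.19 (SE 0.069, adjusted p = 0.293).

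The antioxidant response element is commonly written as TGACNNNGC, and promoters were read for these letters on both strands. Where the open positions are TCA, the same letters also hold the AP-1 site TGACTCA. A window of 250 bases before to 50 bases after the start of a gene (RefSeq, GRCm38.p6) was found for 10985 of 15102 gene symbols tested. The letters TGACNNNGC occurred in 16.9% of these windows, in 21.1% of the windows of lower genes (24 of 114) and in 3.7% of those of higher genes (2 of 54). Among the lower genes that belong to the antioxidant, detoxification and iron lists described below, 11 of 23 windows (47.8%) held them, against 13 of 91 windows (14.3%) of the other lower genes. These lists hold many genes already known to be driven by Nrf2, so this share describes familiar genes. The related letters TGAGNNNGC occurred in 22.8% of all windows, in 18.4% of those of lower genes and in 14.8% of those of higher genes. The 250 bases before the start of 5 lower genes are shown because the motif lies upstream of genes whose fall is described next, with the match in capitals (a match on the minus strand appears as its reverse complement). They are Gsta3 (chr1:21240335-21240584), Mgst1 (chr6:138140277-138140526), Txnrd1 (chr10:82858956-82859205), Prdx1 (chr4:116685349-116685598) and Gclm (chr3:122245307-122245556), all on the plus strand.
Gsta3: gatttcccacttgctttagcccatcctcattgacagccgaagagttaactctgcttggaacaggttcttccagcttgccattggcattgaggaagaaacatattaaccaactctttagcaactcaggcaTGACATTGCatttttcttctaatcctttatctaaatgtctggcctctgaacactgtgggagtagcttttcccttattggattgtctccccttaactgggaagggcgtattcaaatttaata
Mgst1: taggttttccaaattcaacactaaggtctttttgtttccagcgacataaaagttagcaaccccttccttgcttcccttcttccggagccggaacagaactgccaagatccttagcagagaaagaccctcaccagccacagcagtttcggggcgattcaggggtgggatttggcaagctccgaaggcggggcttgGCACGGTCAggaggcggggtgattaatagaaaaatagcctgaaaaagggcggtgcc
Txnrd1: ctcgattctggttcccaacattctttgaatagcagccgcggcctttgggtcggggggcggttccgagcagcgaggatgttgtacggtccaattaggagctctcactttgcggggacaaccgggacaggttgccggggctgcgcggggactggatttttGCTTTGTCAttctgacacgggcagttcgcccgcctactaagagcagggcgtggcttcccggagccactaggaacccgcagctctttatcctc
Prdx1: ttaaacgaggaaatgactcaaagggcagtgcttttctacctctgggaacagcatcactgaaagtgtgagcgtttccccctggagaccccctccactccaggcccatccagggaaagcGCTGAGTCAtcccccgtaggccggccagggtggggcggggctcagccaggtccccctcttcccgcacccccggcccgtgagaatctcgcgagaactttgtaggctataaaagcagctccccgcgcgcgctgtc
Gclm: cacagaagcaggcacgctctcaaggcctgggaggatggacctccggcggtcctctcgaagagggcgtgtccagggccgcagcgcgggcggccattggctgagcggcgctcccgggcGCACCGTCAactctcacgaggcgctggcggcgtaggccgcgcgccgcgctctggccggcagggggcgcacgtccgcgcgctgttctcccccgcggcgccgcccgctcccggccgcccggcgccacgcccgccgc
The matched letters began 121 bases before the start in Gsta3, 56 in Mgst1, 92 in Txnrd1, 133 in Prdx1 and 134 in Gclm. A match describes the window and does not show a binding site.

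Glutathione transferases, which join glutathione to electrophiles, held several of the large falls. Of 20 tested, 5 were lower and none was higher, with a median log2 fold change of -0.19 against 0.00 over all genes tested. Fold changes lay below 0 in 16 of the 20 and above 0 in 4. At an unadjusted p under 0.05 edgeR gave 11 of the 20, those called included, against 10.9% of all genes tested. Gsta3 measured 185, 186 and 196 TPM in GC_WT and 21.6, 23.6 and 23.8 TPM in GC_KO, an 8.18-fold drop (log2 fold change -3.03, SE 0.103, adjusted p = 5.51e-09). Gstm1 measured 565, 573 and 554 TPM in GC_WT and 93.7, 106 and 125 TPM in GC_KO (log2 fold change -2.39, SE 0.108, adjusted p = 9.32e-08). Both genes lay in narrow ranges within a genotype and far apart between genotypes. Mgst1, a membrane-bound transferase, measured 75.7, 85.7 and 87.3 TPM in GC_WT and 34.8, 18.6 and 31.9 TPM in GC_KO (log2 fold change -1.52, adjusted p = 3.76e-05). Gsta2 (log2 fold change -1.16, adjusted p = 0.00205) and Gstp1 (-0.69, adjusted p = 0.000158) were the other members called. Neighbouring members of the Gstm family were not called, Gstm2 having a log2 fold change of 0.09 and Gstm5 one of 0.20, and transferases of 1 family can share reads.

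**Figure D1:**
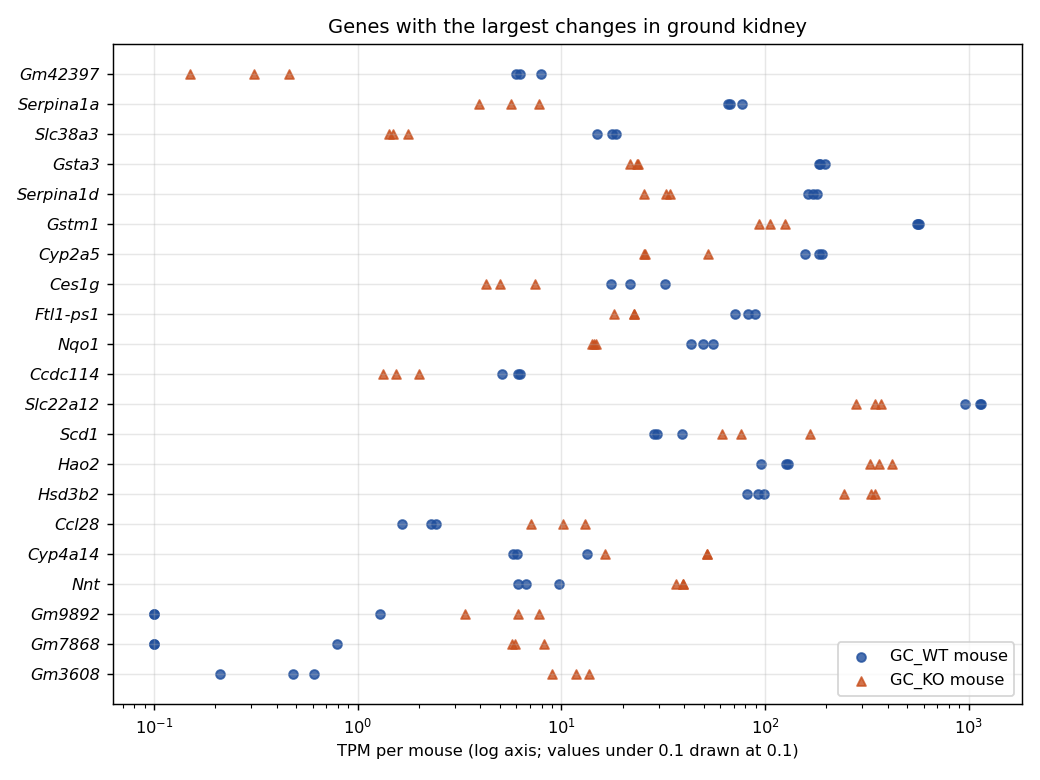
TPM of each ground mouse (log axis) for genes with the largest changes, GC_WT as circles and GC_KO as triangles, with the most strongly reduced gene at the top. The triangles of Gsta3 lie between 21.6 and 23.8 TPM and its circles between 185 and 196 TPM. Circles and triangles do not overlap in any gene shown, because only genes without overlap were eligible.

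Smaller falls were found in glutathione synthesis, NADPH supply and peroxide removal. Gclc and Gclm, the subunits of the enzyme that commits cysteine to glutathione, were the 2 genes called of 17 in the glutathione list. Gclm measured 255, 236 and 278 TPM in GC_WT and 186, 206 and 179 TPM in GC_KO (log2 fold change -0.44, SE 0.0742, adjusted p = 0.00739), and Gclc fell 1.55-fold (SE of the log2 value 0.123, adjusted p = 0.0166). Gss, which completes glutathione, reached -0.38 and was not called (adjusted p = 0.0973). Each fall was well below 2-fold.

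Among 10 NADPH and pentose phosphate enzymes, 4 were lower (Pgd, G6pdx, Me1 and Tkt) and the list median was -0.31. Pgd, the second NADPH-forming step of the pathway, measured 72.7, 67.2 and 75.1 TPM in GC_WT and 50.6, 50.4 and 53.6 TPM in GC_KO (log2 fold change -0.49, SE 0.066, adjusted p = 0.00126). G6pdx, the first step, fell 1.44-fold (SE of the log2 value 0.0796, adjusted p = 0.00284). The thioredoxin and peroxiredoxin list had 3 lower genes of 16, namely Txnrd1 (log2 fold change -0.64, adjusted p = 0.0019), Prdx1 (-0.58, adjusted p = 0.00267) and catalase (Cat, -0.56, adjusted p = 0.00835). Srxn1, which repairs peroxiredoxins, reached -0.37 and was not called (adjusted p = 0.0589). Some of these calls depended on single mice. Without GC_KO mouse 12 the calls of Gclc, Gclm, Me1, Tkt and Cat were lost, and without GC_KO mouse 11 or GC_WT mouse 6 or 10 those of Gclc, Me1 and Tkt. Tkt lost its call under 11 alternatives in all, limma on log2(TPM + 1) and the fit of ground libraries alone among them. The highest adjusted p under any alternative was 0.0963 for Gclc and Me1, 0.0756 for Gclm, 0.17 for Tkt and 0.0531 for Cat.

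Quinone, carbonyl and epoxide enzymes had 4 lower genes of 19. Nqo1, the quinone reductase used as a reporter of Nrf2 activity, measured 55.3, 43.4 and 49.8 TPM in GC_WT and 14.4, 14.2 and 14.8 TPM in GC_KO (log2 fold change -1.79, SE 0.123, adjusted p = 5.69e-06). The SD of 0.317 TPM among GC_KO mice was far below the 5.94 TPM among GC_WT mice. Ugdh, which makes UDP-glucuronate, had a log2 fold change of -0.92 (adjusted p = 0.00157), and Akr1a1, an aldehyde reductase of ascorbate synthesis, one of -0.57 (adjusted p = 0.00228). Akr1c21 was the remaining gene (-0.39, adjusted p = 0.0109), and its call was lost without GC_KO mouse 11 or 12 or GC_WT mouse 6 (adjusted p of up to 0.0649).

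Conjugation and hydrolysis genes moved in both directions. Ugt1a7c, a glucuronosyltransferase, measured 311, 273 and 335 TPM in GC_WT and 150, 161 and 138 TPM in GC_KO (log2 fold change -1.05, SE 0.0947, adjusted p = 3.6e-05). Its span on chromosome 1 contains that of Ugt1a6a, which was not called (-1.06, adjusted p = 0.187). Reads of overlapping genes can be divided between them, so the fall cannot be assigned to Ugt1a7c alone. In the same list of 20 genes Ugt2b37 (log2 fold change 1.12, adjusted p = 0.013) and Ugt2b5 (1.47, adjusted p = 0.0155) were higher, Ugt2b5 from a mean of 1.0 TPM. Without GC_KO mouse 12 or GC_WT mouse 7 both higher calls were lost, with adjusted p of up to 0.0843 and 0.0892 under the alternatives. Carboxylesterases had 3 lower genes and 1 higher gene of 9. Ces2c measured 270, 233 and 258 TPM in GC_WT and 127, 139 and 132 TPM in GC_KO (log2 fold change -0.95, adjusted p = 2.67e-05), and Ces1g fell 4.32-fold (log2 fold change -2.11, adjusted p = 0.000985). Ces2b (-0.73, adjusted p = 0.0452) and the higher Ces2g (0.86, adjusted p = 0.0209) lay close to the threshold, and both calls were lost without GC_KO mouse 2 or 11 (adjusted p of up to 0.191 for Ces2b and 0.0998 for Ces2g).

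Efflux pumps and iron handling followed with 2 lower genes each. Abcc4 (log2 fold change -1.01, SE 0.149, adjusted p = 0.00243) and Abcc2 (-0.70, SE 0.0918, adjusted p = 0.00103), pumps for conjugated anions, were lower of 11 tested. Hmox1, which opens the haem ring, measured 62.6, 43.9 and 56.3 TPM in GC_WT and 27.2, 25.5 and 23.0 TPM in GC_KO (log2 fold change -1.12, SE 0.193, adjusted p = 0.00835), and without GC_KO mouse 12 its adjusted p was 0.0558. Ftl1, the ferritin light chain, measured 3536, 3525 and 3533 TPM in GC_WT and 2399, 2318 and 2339 TPM in GC_KO (log2 fold change -0.60, adjusted p = 0.000988). Ftl1-ps1, which is named as a pseudogene but annotated as protein coding, fell from a mean of 80.7 TPM to 21.3 TPM. Reads of Ftl1-ps1 and Ftl1 can be split between them.

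Of 23 organic anion and cation transporters 2 were lower, 21 were not called and the median was -0.15. Slc22a12, the urate and anion exchanger of the brush border, measured 1150, 960 and 1142 TPM in GC_WT and 278, 348 and 369 TPM in GC_KO (log2 fold change -1.72, SE 0.125, adjusted p = 7.76e-06). Slc22a6, the basolateral anion exchanger that takes up drugs and toxins, measured 478, 421 and 484 TPM in GC_WT and 336, 310 and 331 TPM in GC_KO (log2 fold change -0.51, adjusted p = 0.00739). Slc13a3, the dicarboxylate carrier that feeds such exchange, had a mean of 472 ± 26.7 TPM in GC_WT and 247 ± 14.8 TPM in GC_KO (SD, n = 3; log2 fold change -0.96, adjusted p = 0.000168). Of 14 proximal tubule markers, 3 were lower (Slc13a3, Slc22a6 and Slc7a13), and the summed level of the list was 73240 to 78667 TPM in GC_WT and 71809 to 95018 TPM in GC_KO, so the groups overlapped. Kap, a very abundant transcript that is also in the androgen list, made up most of this sum, and without it the sums were 9894 to 10811 TPM in GC_WT and 9115 to 9884 TPM in GC_KO, so the groups did not overlap, by a narrow margin. The sum without Kap was added after seeing the data. Of the 14 markers 10 lay below 0 (median -0.12). The call of Slc7a13 was lost without any 1 of the 6 ground mice (adjusted p of up to 0.203).

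Some of the largest changes of protein-coding genes lay outside the detoxification lists. Serpina1a, a member of the alpha-1 antitrypsin family, measured 67.0, 76.8 and 65.4 TPM in GC_WT and 5.65, 7.72 and 3.92 TPM in GC_KO (log2 fold change -3.60, SE 0.264, adjusted p = 7.76e-06). Its neighbour Serpina1d measured 171, 163 and 180 TPM in GC_WT and 32.5, 34.1 and 25.4 TPM in GC_KO (log2 fold change -2.49, adjusted p = 4.29e-07). Albumin (Alb), which defines hepatocytes, measured 4.07 to 4.89 TPM in GC_WT and 3.04 to 5.17 TPM in GC_KO. Of 6 hepatocyte markers tested, which include Serpina1a, 3 lay below 0 and 3 above (median -0.02), and Serpina1a alone was called. Apoh, a plasma protein gene of liver named after its values were seen, was also lower in kidney, with means of 13.2 and 5.1 TPM (log2 fold change -1.38, adjusted p = 0.00102). The part of liver RNA in these falls was not tested. Serpina1 genes are near copies of each other and RSEM divides shared reads between them, so the size of each fall is uncertain. Slc38a3, the glutamine carrier that serves ammonia formation in the proximal tubule, measured 17.7, 14.9 and 18.5 TPM in GC_WT and 1.76, 1.42 and 1.49 TPM in GC_KO, an 11.10-fold drop (SE of the log2 fold change 0.163, adjusted p = 1.04e-07). Gm42397, a transcript without a known role, kept 4.57% of its WT mean, the lowest share among called genes with a mean of at least 5 TPM in a group. Predicted genes below that level, such as Gm17167 (1.19%), kept less.

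Cytochromes P450 were divided evenly, with 4 lower and 4 higher genes of 26 tested. Cyp2a5, a coumarin hydroxylase, measured 191, 157 and 185 TPM in GC_WT and 52.5, 25.8 and 25.3 TPM in GC_KO (log2 fold change -2.38, SE 0.305, adjusted p = 0.000871). Cyp2a4 (log2 fold change -0.79), Cyp7b1, an oxysterol hydroxylase (-0.96), and Cyp1b1 (-0.53) were the other lower genes. The higher members included the fatty acid hydroxylases Cyp4a14 (2.24, adjusted p = 0.00938), Cyp4a12b (1.34, adjusted p = 0.000109) and Cyp4a12a (1.32, adjusted p = 0.0113), and Cyp2s1 (0.43, adjusted p = 0.0485). Cyp4a14 measured 5.78, 6.02 and 13.3 TPM in GC_WT and 52.1, 16.4 and 51.8 TPM in GC_KO, where GC_KO mouse 11 came close to the highest WT mouse. The calls of Cyp4a14 and Cyp4a12a were lost without GC_WT mouse 7 (adjusted p of up to 0.068 and 0.0675), and that of Cyp2s1 under 13 alternatives (up to 0.18).

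A list of 25 genes of fatty acid oxidation and PPAR alpha targets had 2 higher genes and no lower gene, with a median of 0.03. Hao2, a peroxisomal hydroxyacid oxidase, measured 95.2, 126 and 130 TPM in GC_WT and 364, 327 and 418 TPM in GC_KO (log2 fold change 1.65, adjusted p = 1.32e-05). Hsd3b2, a steroid dehydrogenase, rose 3.20-fold while its neighbour Hsd3b3 fell 2.68-fold, in a family whose members can share reads.

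Cholesterol and fatty acid synthesis had 3 higher genes and 1 lower gene of 19, with a median of 0.25. Scd1, the stearoyl-CoA desaturase, measured 28.6, 29.4 and 38.9 TPM in GC_WT and 166, 61.4 and 76.1 TPM in GC_KO (log2 fold change 1.63, SE 0.299, adjusted p = 0.012). Fasn (0.58, adjusted p = 0.00875) and Elovl6 (0.56, adjusted p = 0.0181) were the other higher genes, and Me1, which also supplies NADPH, was the lower gene. The highest value of Scd1 came from GC_KO mouse 2, which also held the most RNA of the adipocyte list, 30.8 TPM summed over 8 markers against 0.4 and 6.15 TPM in the other GC_KO mice and 0 to 6.85 TPM in GC_WT. Without this mouse Scd1 had a log2 fold change of 1.08 (adjusted p = 0.00877) and Fasn 0.45 (adjusted p = 0.0195), while Elovl6 was not called (0.55, adjusted p = 0.0527). Scd1 was not called without GC_WT mouse 6 (adjusted p = 0.0779) or 7 (adjusted p = 0.0689), nor was Fasn (0.054 and 0.0536). Between FL_KO and FL_WT none of the 3 higher genes was called by edgeR. Their log2 fold changes there were 1.27 for Scd1 (adjusted p = 0.0532), 0.10 for Fasn (adjusted p = 0.736) and 0.16 for Elovl6 (adjusted p = 0.564).

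**Figure D2:**
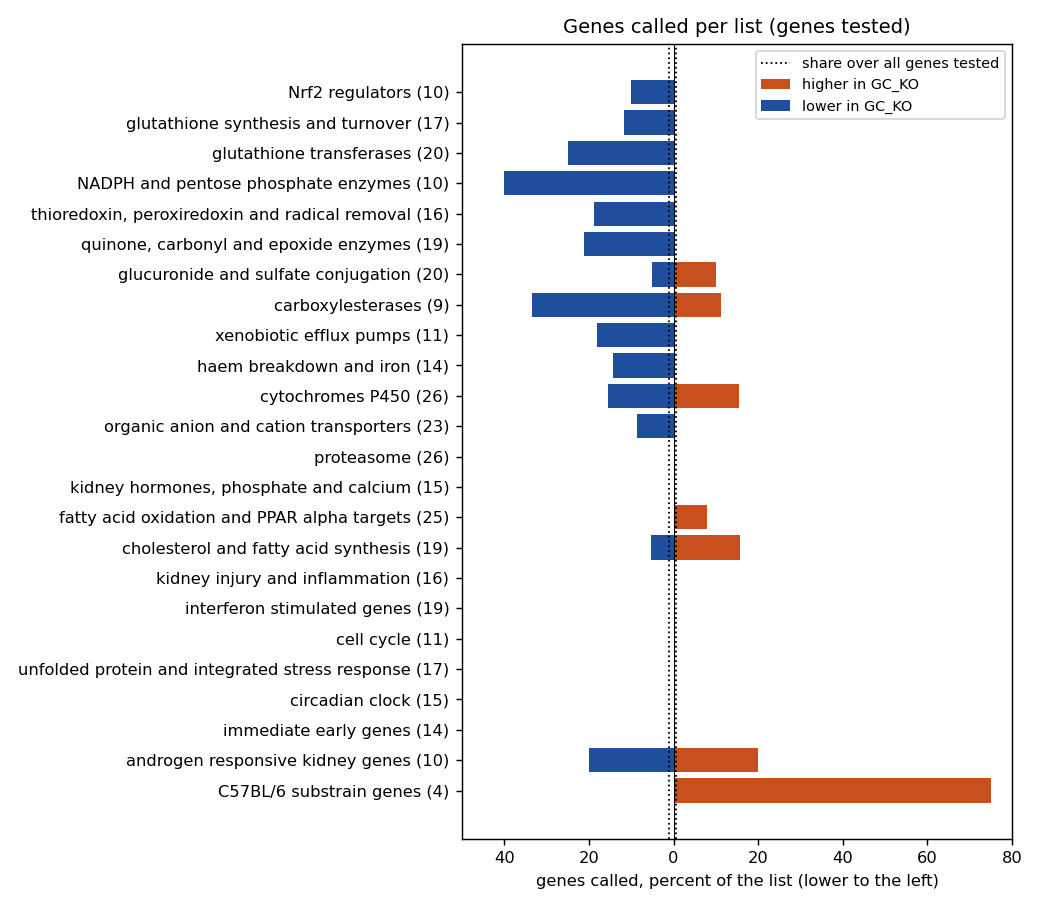
Share of genes called in each of 24 pathway lists, lower genes to the left and higher genes to the right, with the number of genes tested in brackets and the shares over all genes tested (1.04% lower and 0.569% higher) as dotted lines. Lower calls occur in each of the antioxidant and detoxification lists at the top, though most genes of these lists were not called. The glucuronide and sulfate conjugation list has 2 higher genes and 1 lower gene, and 8 lists have no call.

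No gene passed the threshold in 8 lists that together held 133 genes tested, namely proteasome subunits, kidney hormones with phosphate and calcium handling, kidney injury and inflammation, interferon stimulated genes, cell cycle, unfolded protein response, circadian clock and immediate early genes. At an unadjusted p under 0.05 edgeR gave 14 of these genes (10.5%, against 10.9% of all genes tested), DESeq2 called 4 and limma called none. Proteasome subunits stayed within log2 fold changes of -0.13 to 0.17. Ren1, renin, had a mean of 37.8 ± 7.53 TPM in GC_WT and 72.2 ± 8.37 TPM in GC_KO (SD, n = 3; log2 fold change 0.92, adjusted p = 0.0589) and did not pass. Havcr1, a marker of tubular injury, stayed under 2 TPM and was not called (log2 fold change -1.41, adjusted p = 0.121). A list of 10 genes that respond to androgen in male kidney was split, with 2 higher (Cyp4a12a and Cyp4a12b) and 2 lower (Gstp1 and Slc7a13). Among markers of other kidney cells, Hsd11b2 of the collecting duct was the only gene called (log2 fold change 0.53, adjusted p = 0.047), a call lost without 5 of the 6 ground mice taken 1 at a time (adjusted p of up to 0.178). All 7 markers of collecting duct principal cells had fold changes above 0 (median 0.43). At an unadjusted p under 0.05 edgeR gave 5 of the 7, Hsd11b2 included, while DESeq2 called 2 and limma called 1. Their summed levels were 360 to 524 TPM in GC_WT and 494 to 624 TPM in GC_KO, so the groups overlapped. All 8 intercalated cell markers also lay above 0 (median 0.18) and all 8 endothelial markers below 0 (median -0.12), with none called.

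Clock genes varied between mice of the same genotype. Dbp, an output gene of the clock, measured 32.7, 11.7 and 8.63 TPM in GC_WT mice 6, 7 and 10 and 54.3, 8.43 and 6.11 TPM in GC_KO mice 2, 11 and 12. Arntl, which activates Dbp and peaks in the opposite phase, measured 5.12, 13.4 and 17.5 TPM in the same GC_WT mice and 4.52, 17.4 and 19.3 TPM in the GC_KO mice. GC_KO mouse 2 and GC_WT mouse 6 thus had high Dbp with low Arntl, and the other ground mice had the reverse. The median SE of the 15 clock genes was 0.574, against 0.13 over all genes tested. In flown mice Dbp was 57.6 and 47.4 TPM in FL_KO mice 1 and 2 and 36.9 TPM in FL_WT mouse 5, and 5.95 to 10.7 TPM in the others. The clock hour of tissue collection was not used here, and its part in other results was not tested.

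**Figure D3:**
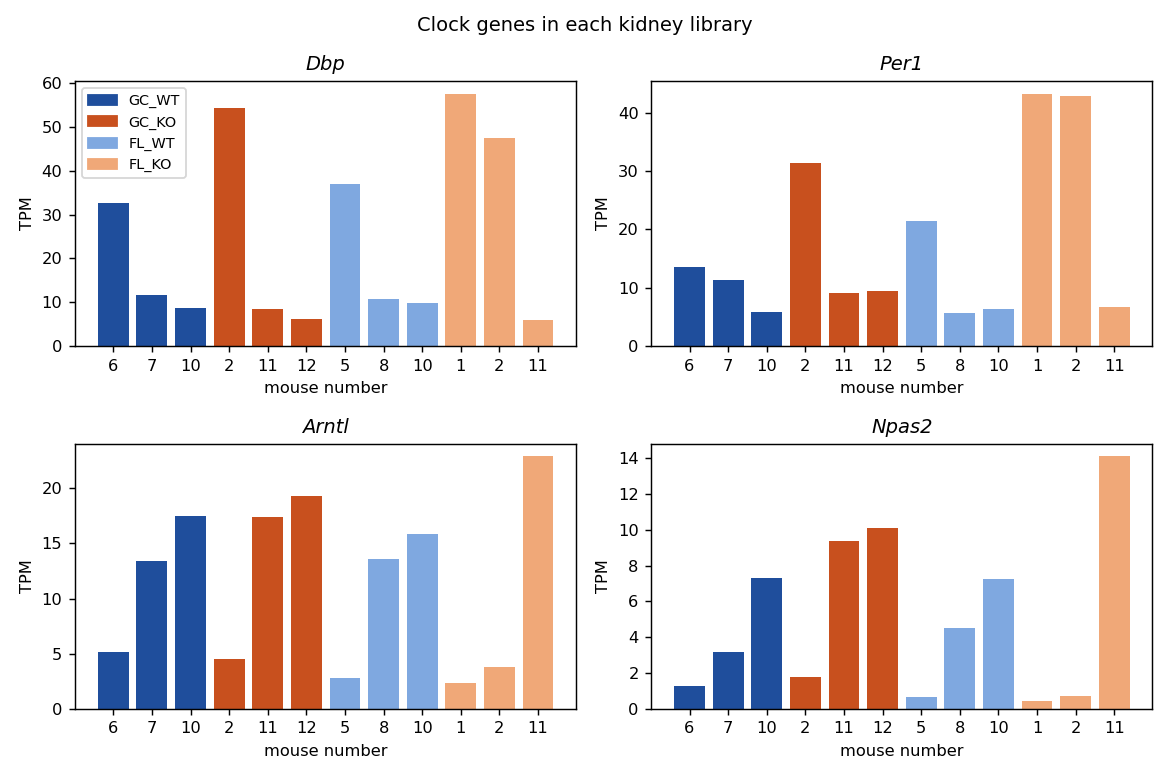
TPM of 4 clock genes in each of the 12 kidney libraries, 1 bar per mouse, coloured by group and labelled by mouse number. Dbp and Per1 are high where Arntl and Npas2 are low, as in GC_KO mouse 2 (54.3 TPM of Dbp and 4.52 TPM of Arntl), and both patterns occur within each group.

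Flight kidneys came from other animals and gave a second reading of the genotype effect. Between FL_KO and FL_WT, 276 genes (1.83%) were called, 77 higher (0.509%) and 199 lower (1.32%). Of the 243 genes called on the ground, 239 (98.4%) had the same direction in flight, against 64.8% of all genes tested, and 152 were called there too (62.6% of the ground calls and 55.1% of the flight calls). The genes called in both were 112 of the 157 lower genes and 40 of the 86 higher genes. Nqo1 had a log2 fold change of -1.88 in flight, Gsta3 one of -3.26 and Slc38a3 one of -3.78. The difference between the genotype effects on the ground and in flight was significant for no gene in edgeR (0%, with 511 genes at an unadjusted p under 0.05), for 3 genes in DESeq2 and for none in limma. Ces1g had means of 23.7 TPM in GC_WT and 5.55 TPM in GC_KO but 8.59 TPM in FL_WT and 7.40 TPM in FL_KO (unadjusted p of the difference 0.000316 by edgeR, adjusted p = 1). Cyp4a14 had means of 8.38 TPM in GC_WT and 40.1 TPM in GC_KO but 189 TPM in FL_WT and 298 TPM in FL_KO (unadjusted p of the difference 0.00974 by edgeR, adjusted p = 1). Both genes were chosen after their values were seen.

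**Figure D4:**
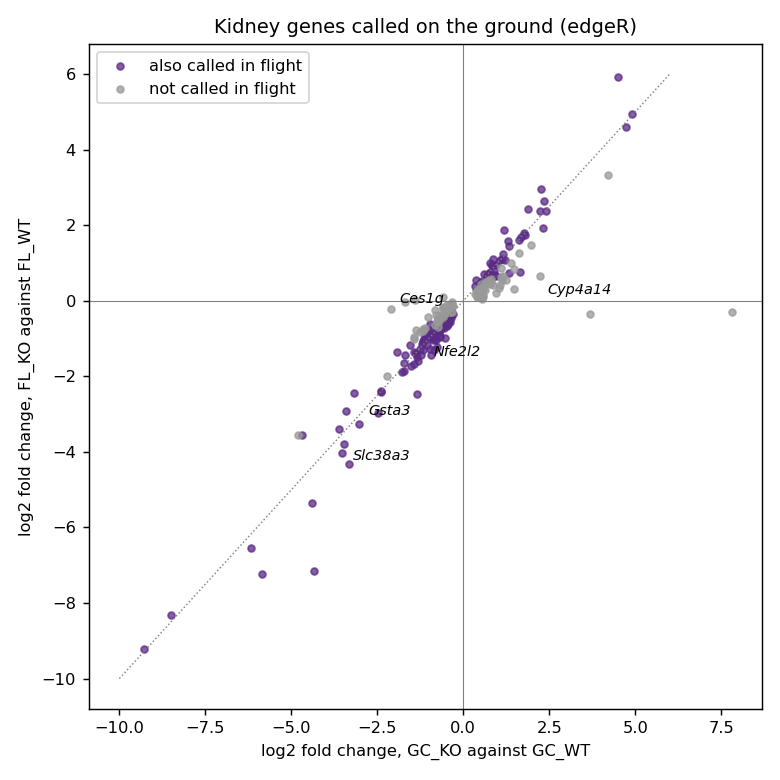
Log2 fold change of the genotype in ground kidney (horizontal) against flight kidney (vertical) for the 243 genes called on the ground, with equality as a dotted line. Of the points, 239 have the same sign in both, and Ces1g lies at -2.11 on the ground axis and -0.21 on the flight axis.

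Genes near Nfe2l2 were examined because a disrupted allele carries the chromosome around it. Within 10 Mb, 4 of 111 genes tested were called (3.6%, against 1.61% of all genes). They were Nfe2l2, the transcript Gm13655 (log2 fold change -1.34, adjusted p = 0.0254) and the phosphodiesterases Pde1a and Pde11a. Nfe2l2 is the disrupted gene itself and no neighbour, so the share among neighbours is smaller than 3.6%. Pde1a measured 15.1, 18.2 and 16.9 TPM in GC_WT and 41.5, 35.0 and 37.1 TPM in GC_KO (log2 fold change 1.06, SE 0.103, adjusted p = 6.58e-05), and Pde11a stayed under 1 TPM (log2 fold change 2.27, adjusted p = 0.0148). Without GC_KO mouse 2 or 12, or GC_WT mouse 7, both Gm13655 and Pde11a lost their calls (adjusted p of up to 0.116 and 0.0843). Of the 4 genes this left Nfe2l2 and, as the only neighbour, Pde1a.

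Genes known to differ between C57BL/6 substrains were also called. Nnt, the mitochondrial transhydrogenase that is partly deleted in C57BL/6J, is held under a pair of overlapping identifiers on chromosome 13. One (ENSMUSG00000025453.18, 119335448 to 119408997) measured 6.73, 9.76 and 6.14 TPM in GC_WT and 39.5, 36.6 and 39.5 TPM in GC_KO (log2 fold change 2.34, SE 0.249, adjusted p = 0.000164), and the other (ENSMUSG00000116207.1) 38.9 ± 4.46 and 45.3 ± 8.5 TPM (SD, n = 3) and was not called. Their sum was 46.5 ± 2.52 TPM in GC_WT and 83.8 ± 9.52 TPM in GC_KO, and the reads of both models cannot be told apart here. Wdfy1, an endosomal protein, measured 12.0, 12.8 and 12.5 TPM in GC_WT and 21.6, 21.8 and 20.7 TPM in GC_KO (log2 fold change 0.95, adjusted p = 7.79e-06), and Entpd4, a nucleotidase with a near copy (Entpd4b), had a log2 fold change of 0.68 (adjusted p = 0.00345). By limma on log2(TPM + 1) Entpd4 was not called (adjusted p = 0.184). The study's methods name C57BL/6J as the background of both genotypes, and the labels name C57BL/6. Breeding history and the Nfe2l2 allele cannot be told apart in this design. Next to Nnt, Tmem267 fell 3.25-fold and the chemokine gene Ccl28 rose 4.71-fold.

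The kidney effect was set against the liver of the same 6 mice. The genotype effect differed between kidney and liver in 56 genes (0.363% of 15425 tested, 31 higher, 0.201%, and 25 lower, 0.162%, in kidney relative to liver), in a fit with the mouse as a block. Liver levels below are those of the same GC_WT mice 6, 7 and 10 and GC_KO mice 2, 11 and 12, and differences are kidney minus liver on the log2 scale. Gsta3, which fell 8.18-fold in kidney, measured 2029, 2022 and 2045 TPM in liver of GC_WT and 1275, 1943 and 1830 TPM in liver of GC_KO (difference -2.64, SE 0.15, adjusted p = 0.000107). Slc38a3 measured 533, 395 and 445 TPM in liver of GC_WT and 722, 411 and 391 TPM in liver of GC_KO, where the groups overlapped (difference -3.51, adjusted p = 0.000107). Serpina1a, which fell in kidney, lay higher in the 3 GC_KO livers, at 6788 to 7380 TPM against 5965 to 6275 TPM (difference -3.74, adjusted p = 0.000107). In the edgeR fit of all ground livers, 6 mice a group, Serpina1a was not called (log2 fold change 0.11, adjusted p = 0.441). The difference for Hmox1 was -0.98 (SE 0.16, adjusted p = 0.0421).

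In the other direction, Pigr, the carrier of immunoglobulin across epithelia, rose in kidney from a mean of 32.2 to 67.2 TPM, and measured 475, 478 and 647 TPM in liver of GC_WT and 290, 241 and 324 TPM in liver of GC_KO (difference 2.04, SE 0.144, adjusted p = 0.000183). Ephx1, the microsomal epoxide hydrolase, had means of 30.5 and 27.9 TPM in kidney, and measured 477, 304 and 359 TPM in liver of GC_WT and 127, 121 and 107 TPM in liver of GC_KO (difference 1.62, adjusted p = 0.0274). Ces2c measured 76.2, 59.5 and 73.4 TPM in liver of GC_WT and 11.2, 13.6 and 13.2 TPM in liver of GC_KO (difference 1.60, adjusted p = 0.000183). For Nqo1, a quinone reductase, the difference was 0.15 (SE 0.219, adjusted p = 0.938). Hmox1, Ephx1, Ces2c and Nqo1 were set beside liver after their values were seen.

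**Figure D5:**
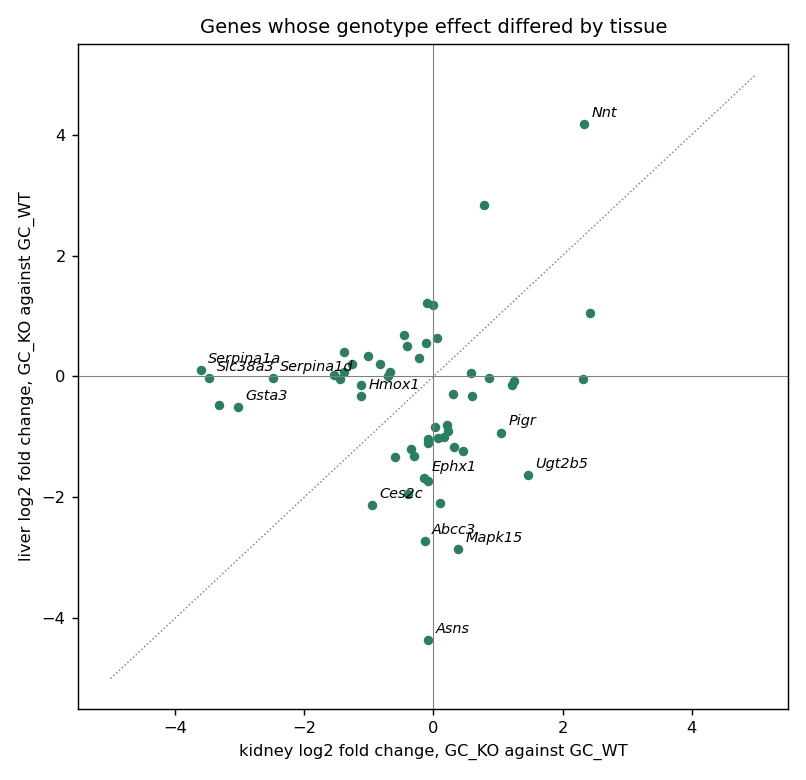
Log2 fold change of the genotype on the ground in kidney (horizontal) against liver (vertical), for 55 of the 56 genes whose effect differed between the tissues, with equality as a dotted line. Kidney values come from the kidney fit (3 mice a group) and liver values from the liver fit (6 mice a group), while the genes were called on the 6 mice with both organs. Serpina1a, Slc38a3 and Gsta3 lie far to the left at liver values of 0.11, -0.03 and -0.51, and Ephx1 lies low at a kidney value of -0.14.

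Across the other 8 tissues of ground mice, 96 of the 243 kidney calls were called in the same direction in at least 1 tissue and 147 in none. Tissues share mice and differ in the number of mice and of genes tested, so these are counts, not tests. Liver shared 70 genes (28.8% of the kidney calls and 19.7% of the liver calls, with 2.64% of liver genes called), eWAT 53 (12.6% of its calls, with 2.74% called), iBAT 41 (14.1%, with 2.14% called) and spleen 36 (19.8%, with 1.13% called). Cerebrum and thymus shared 29 genes each (21.2% and 4.67% of their calls, with 0.836% and 3.81% called), temporal bone 22 (61.1%, with 0.198% called) and mandibular bone 18 (45%, with 0.244% called). In all 8 tissues 13 genes were called in the kidney's direction, among them Nfe2l2, Wdfy1, Entpd4, Tmem267 and Capza1. Gstm1 was called in 7 other tissues, Gsta3 in 5, Ftl1 in 4 and Nqo1 in 2, liver and eWAT. Hmox1, Slc38a3, Slc13a3, Ugt1a7c and Abcc2 were called in none of the other tissues in which they were tested, and Slc22a12 was tested in none of them.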

How the data were processed

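The authors sequenced kidney RNA from poly(A) libraries made with a strand-specific kit, and the submitters' processing notes name bcl2fastq, STAR 2.6.1 and RSEM 1.3.1 with the mouse genome GRCm38 (mm10). The authors deposited RSEM expected counts per gene, which are estimates that divide reads shared between genes and were not normalized, beside TPM and FPKM. The 192 FPKM columns were not used. The strand setting of the counting and read filters are not given in the sources used here. Gene positions came from the file identifiers matched to GENCODE vM21 (99.9% matched), and promoter sequences from RefSeq for GRCm38.p6.

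Expected counts of the 12 kidney libraries were rounded, filtered with filterByExpr, scaled by TMM and tested with edgeR 4.0.16 (R 4.3.3) quasi-likelihood tests of 4 group means, adjusted by Benjamini-Hochberg over all genes tested and called at an adjusted p under 0.05. SE values come from the same fit. Folds use the fitted log2 fold change and levels use TPM. The difference between kidney and liver was fitted on the 6 ground mice with both organs, with the mouse as a block, since the same animals gave both. The scripts were tested on simulated counts. Alternatives used DESeq2 1.42.0, limma 3.58.1 on log2(TPM + 1) for genes of at least 5 TPM in a group, RLE factors, no count filter, the libraries of 1 contrast only and each mouse left out.

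The members, gene lists and tests were chosen with earlier results of these data known. Named genes were Nfe2l2, the 12 called genes each way that moved most on the log2 scale, where groups did not overlap and a group mean reached 5 TPM, the 4 genes of smallest adjusted p in each pathway list with those called against its direction, called genes within 10 Mb of Nfe2l2, the 6 genes each way with the largest kidney and liver difference, the substrain genes and called marker genes. Other genes were named after their values were seen. Each mouse gave 1 library per organ, so n counts animals, and an interval between them covers animal and technical spread together. Results for some genes that these rules select are not reported here.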

Additional observations from a re-analysis of the deposited data

Results flagged for a closer look

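The effect of the genotype on the ground differed between kidney and liver of the same 6 mice in 56 genes, by a test of the difference itself, and the genes below were among those with the largest differences among those at 5 TPM or more in a kidney group. Differences are kidney minus liver on the log2 scale. Serpina1a (-3.74), Slc38a3 (-3.51), Gsta3 (-2.64) and Serpina1d (-2.52) were lower in kidney relative to liver, each with adjusted p = 0.000107, and Pigr (2.04, adjusted p = 0.000183) was higher.

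Liver levels are those of the same 6 mice. Nnt had a difference of -3.85 (adjusted p = 0.000107) under the identifier ENSMUSG00000025453.18, which overlaps another model of the gene, so that reads can be divided between them. Under this identifier it had means of 7.54 and 38.5 TPM in kidney, and measured 0.22, 0.17 and 0.16 TPM in liver of GC_WT and 14.1, 17.3 and 13.9 TPM in liver of GC_KO. Over all 6 GC_WT livers the mean was 0.902 ± 1.2 TPM (SD), so the size of the difference rests on low levels in WT liver. Under the other identifier (ENSMUSG00000116207.1) the difference was -0.74 and was not called (adjusted p = 0.102). Mapk15, an atypical MAP kinase, had a difference of 3.24 (adjusted p = 0.00151), with means of 10.2 and 13.4 TPM in kidney, and measured 7.76, 9.11 and 12.2 TPM in liver of GC_WT and 0.39, 2.08 and 1.94 TPM in liver of GC_KO. BC049987 (2.58, adjusted p = 0.000694) measured 9.28, 10.1 and 10.6 TPM in liver of GC_WT and 1.47, 2.05 and 2.14 TPM in liver of GC_KO. Plekhb2 (2.04, adjusted p = 0.00147) measured 6.36, 8.38 and 8.75 TPM in liver of GC_WT and 1.46, 1.7 and 1.66 TPM in liver of GC_KO. Over all 6 livers of each group Plekhb2 had 8.35 ± 1.56 TPM in GC_WT and 3.29 ± 2.75 TPM in GC_KO (SD). Its narrow range in GC_KO liver thus holds only for the mice of the pairs. Nat8f3 (4.71, adjusted p = 0.0224) had 82.9 and 81.2 TPM in kidney and at most 1.05 TPM in the 6 livers, so its liver side rests on few reads. Gm43552 (-7.42, adjusted p = 0.0369) was listed at 0 TPM in the livers of all 3 GC_WT mice of the pairs, so the size of its difference depends on the fit and is no measure of a fold. It had 18 ± 2.19 TPM in kidney of GC_WT and 13.7 ± 3.06 TPM in kidney of GC_KO (SD, n = 3).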

How the results depend on the processing

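No called gene named in the text reversed its direction under any alternative run. Of 600 comparisons of named genes under other tools, scalings, filters and samples 572 kept the call and 28 lost it, and of 1488 with 1 mouse left out 1267 kept it and 221 lost it. For 49 of 124 genes the call was lost with at least 1 mouse left out. DESeq2 called 112 higher and 222 lower genes (237 of the 243 included), limma on log2(TPM + 1) 62 and 120, and no count filter 115 and 199. With 1 mouse left out, the count of higher genes ranged from 42 (without GC_WT mouse 7) to 97. That of lower genes ranged from 98 (without GC_KO mouse 12) to 179, and that of higher list genes from 5 to 15 (14 with all mice). Genes called within 10 Mb of Nfe2l2, with Nfe2l2 itself included, ranged from 2 to 5.

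In flight 276 genes were called, against 424 by DESeq2, 433 without a filter, 157 with flight libraries alone, and 153 (without FL_WT mouse 10) to 472 (without FL_KO mouse 11) with 1 mouse left out. The difference between ground and flight effects was called for 0 genes, 3 by DESeq2, 5 without a filter, and 0 to 3 with 1 mouse left out. The cause of these changes was not tested. Kidney calls shared with another tissue numbered 39 in place of 96 when a log2 fold change of at least 1 was also asked, which asks more of each gene. Of lower genes' promoters 35.1% held either motif (35.4% over all genes tested), 21.1% TGACNNNGC alone and 18.4% TGAGNNNGC alone.

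The kidney and liver difference, fitted with the mouse as a block because the same animals gave both organs, was called for 56 genes, and without the block for 54. By limma voom on 18 libraries with an estimated correlation it was called for 101, and with 1 mouse left out for 21 (without mouse 6) to 214 (without mouse 2). No paired analysis was possible for GC_KO against GC_WT because the groups share no mouse number. With 3 mice a group, changes below the spread of a gene were not detectable, and clock and adipocyte genes had SE far above the median.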

Other observations

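Part of the called genes lay in runs along the genome. Runs of at least 4 called genes with gaps of at most 3 Mb, a measure added after the data were seen, numbered 15 and held 83 of the 243 called genes (34.2%). The share to be had from gene density alone was not computed. Several runs hold neighbouring members of 1 family, such as Cyp4a, Hsd3b and Ces2 genes, so 34.2% is a description. On chromosome 3, a pair of runs separated by a wider gap spans Selenbp2 to Gstm1, where 18 of 177 genes tested were called (10.2%, 8 higher and 10 lower), against 0.992% of the genes on the rest of the chromosome. The stretch was chosen for its calls and ends at called genes, so this share is a description. Acp6, a lysophosphatidic acid phosphatase within it, measured 33.1, 32.4 and 34.3 TPM in GC_WT and 65.5, 60.2 and 62.6 TPM in GC_KO (log2 fold change 0.90, adjusted p = 7.76e-06). Olfml3, an extracellular matrix protein gene in the same stretch, measured 7.95, 9.68 and 7.43 TPM in GC_WT and 2.96, 2.63 and 3.08 TPM in GC_KO (log2 fold change -1.54, adjusted p = 7.76e-06). A run on chromosome 12 (5 of 11 genes called) held Serpina1a, Serpina1b and Serpina1d, which were lower, Serpina1f, which was higher, and Glrx5, and members of the Serpina1 family can share reads. On chromosome 4, from 42206998 to 43651244, 7 of 35 genes were called, most of them predicted genes in a region of near copies.

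Some pseudogenes were among the largest rises. Gm3608 measured 0.61, 0.21 and 0.48 TPM in GC_WT and 13.7, 8.97 and 11.8 TPM in GC_KO, and was called in the same direction in all 8 other tissues. Gm7868 measured 0.79, 0 and 0 TPM in GC_WT and 5.73, 5.93 and 8.24 TPM in GC_KO, and was likewise called in all 8. Cd59a, an inhibitor of complement near Cat on chromosome 2, measured 21.2, 24.6 and 19.7 TPM in GC_WT and 9.38, 8.46 and 8.03 TPM in GC_KO (log2 fold change -1.34, adjusted p = 2.22e-05). Library FL_KO 11, which entered the fit for its spread, held 47.6 TPM of Alb, against 3.04 to 7.47 TPM in the other kidney libraries.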
